A study of Homo sapiens with 38 samples.

Results

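The nuclear-encoded subunits of the respiratory chain were followed through nuclear and cytoplasmic RNA of HCT116 cells, a colorectal cancer line, with and without Argonaute proteins. Members were the protein-coding genes whose symbols match those of subunits of complexes I to V. The symbols were NDUFA, NDUFB, NDUFC, NDUFS or NDUFV with a number, SDHA to SDHD, every UQCR symbol, COX with a number other than the assembly factors COX10 to COX20, and every ATP5 symbol. The rule gave 87 of 19783 protein-coding genes with transcripts in the files. Complex I held 37 of them, complex II 4, complex III 9, complex IV 17 and complex V 20. By symbol NDUFA4 counted with complex I, although its protein is known as a part of complex IV. The readthrough gene ATP5MF-PTCD1 and the ATP synthase inhibitor ATP5IF1 counted with complex V. CYC1, CYCS and NDUFAB1 take part in electron transport but fell outside the symbols.

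Total RNA depleted of ribosomal RNA was sequenced from 30 libraries in 10 groups of 3, made of 5 genotypes and 2 fractions. The genotypes were wild type and lines edited with CRISPR/Cas9 in a single gene (AGO1 or AGO2), in that pair (AGO1/2), or additionally in AGO3 (AGO1/2/3). The replicates of a genotype are passages of 1 line, so p-values measure the spread between passages. Wild-type cells were taken at passages 27, 28 and 29, AGO1 knockout cells at 6, 7 and 8, AGO2 knockout cells at 8, 9 and 10, AGO1/2 knockout cells at 9, 10 and 11, and AGO1/2/3 knockout cells at 11, 12 and 14. Each genotype is therefore also a line with its own history and a passage range, and these cannot be told apart.

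Nuclear libraries held 20431557 to 54097984 estimated reads and cytoplasmic libraries 39476205 to 79731793, with the fewest in the wild-type libraries of each fraction. Epithelial markers were present (cytoplasmic EPCAM 142 ± 16.4 TPM and KRT8 446 ± 33.6 TPM in wild type, SD, n = 3), while the intestinal markers CDH17, VIL1 and LGALS4 and the blood and vessel markers PTPRC, CD3E and PECAM1 were near 0. In wild-type cytoplasm CDX2, also an intestinal marker, stood at 5.2 TPM. ACTA2 and COL1A1, markers of other cells, stood at 3.27 and 1.47 TPM there. From the AGO1 to the AGO1/2/3 line cytoplasmic EPCAM stood at 115, 132, 44.1 and 52.0 TPM, and KRT8 at 344, 321, 337 and 483 TPM. CDH1, an epithelial marker, stood at 12.3 TPM in wild type and at 4.66, 7.41, 1.12 and 1.9 TPM in these lines. TPM is a transcript level corrected for length and library size. Cytoplasmic AGO1 transcript was 12.9 ± 1.97 TPM in wild type and 0.886 to 0.92 TPM on average in the 3 lines edited in AGO1. AGO2 transcript was 36.0 ± 4.48 TPM in wild type and 18.5 ± 2.23 TPM in the AGO2 knockout, but 28.9 ± 0.333 and 27.1 ± 2.67 TPM in the AGO1/2 and AGO1/2/3 knockouts, near the 32.3 ± 2.64 TPM of the AGO1 knockout, which is not edited in AGO2. AGO3 was 8.39 ± 1.55 and 8.64 ± 0.655 TPM in wild type and AGO1/2/3 knockout. The RNA level thus checks the label for AGO1, and does not check AGO2 in the multiple lines or AGO3. The fractions also differed between lines: the nuclear RNA MALAT1 lay at 2690 to 3490 TPM in wild-type nuclear libraries and at 1200 to 2100 TPM in the edited lines, and 7SL, 7SK and RMRP RNA made up 36.8% of nuclear TPM in wild type against 41.4 to 45.1% on average in the edited lines. Parts of this sum moved apart. Nuclear RN7SL1, a 7SL gene, stood at 79600 TPM in wild type and 172000 TPM in AGO1/2. RMRP stood at 173000 and 82100 TPM there, but at 214000 TPM in AGO1. The messenger RNA GAPDH stood at 1260 TPM in wild-type nuclei. In the edited nuclei it stood at 1630, 1590, 2670 and 2020 TPM, from the AGO1 to the AGO1/2/3 line. In the cytoplasm it stood at 1960 TPM in wild type and at 2020, 1910, 1490 and 1930 TPM. What part these values had in the results below was not tested. In bulk RNA of this kind, fewer cells of a type and less RNA per cell cannot be told apart.

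The respiratory chain sits in the inner mitochondrial membrane. Complexes I and II pass electrons from NADH and succinate to ubiquinone, complex III passes them on to cytochrome c, complex IV reduces oxygen, and complex V uses the proton gradient to make ATP. Most subunits are encoded in the nucleus, translated in the cytoplasm and imported, and a small core is encoded by mitochondrial DNA. Transcription of the nuclear genes is commonly linked to NRF1, to the ETS factor GABP (also called NRF2) and to YY1.

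Promoters were examined because the members are encoded on many chromosomes and share no sequence used by the symbol rule. A promoter entry was found for 69 of the 87 members in a RefSeq table of 15843 protein-coding promoters (GRCh38.p14, 250 bases before to 50 after each start). The NRF1 letters CGCANGCG, read on either strand, were present in 24 member promoters (34.8%) and in 13.8% of all promoters. The ETS letters CCGGAAG were present in 20 (29.0%, against 14.0% of all), and the YY1 letters AAGATGGC in 12 (17.4%, against 3.8%). CCAAT, at 36.2% against 36.0%, and TATAAA, at 8.7% against 9.9%, stood at nearly the share of all promoters. In 39 members either NRF1 or ETS letters were found, in 5 of these both, and in 30 neither. GC content was 61% at the median in members and 62.7% over all promoters. The 250 bases before the start are shown for 6 members that return in the results, as examples with and without a match. Capitals mark ETS letters, on either strand, in COX8A, NDUFB7 and NDUFA13 and NRF1 letters in NDUFA11 and UQCRFS1. NDUFB11 has no match to the NRF1, ETS or YY1 letters. CCAAT and TATAAA were not marked.
COX8A: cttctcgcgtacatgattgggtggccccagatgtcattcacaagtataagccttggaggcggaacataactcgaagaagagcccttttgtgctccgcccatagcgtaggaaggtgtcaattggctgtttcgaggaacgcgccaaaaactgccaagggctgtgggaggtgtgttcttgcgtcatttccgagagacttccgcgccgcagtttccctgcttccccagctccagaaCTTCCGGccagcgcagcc
NDUFB7: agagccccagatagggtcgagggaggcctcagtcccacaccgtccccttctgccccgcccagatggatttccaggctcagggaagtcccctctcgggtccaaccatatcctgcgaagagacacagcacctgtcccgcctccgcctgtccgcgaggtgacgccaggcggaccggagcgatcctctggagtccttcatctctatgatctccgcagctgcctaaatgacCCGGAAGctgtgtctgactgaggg
NDUFA11: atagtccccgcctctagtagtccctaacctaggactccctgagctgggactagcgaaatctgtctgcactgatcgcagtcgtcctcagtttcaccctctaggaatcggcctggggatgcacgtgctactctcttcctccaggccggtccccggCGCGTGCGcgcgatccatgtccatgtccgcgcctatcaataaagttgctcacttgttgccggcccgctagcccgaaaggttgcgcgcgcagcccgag
UQCRFS1: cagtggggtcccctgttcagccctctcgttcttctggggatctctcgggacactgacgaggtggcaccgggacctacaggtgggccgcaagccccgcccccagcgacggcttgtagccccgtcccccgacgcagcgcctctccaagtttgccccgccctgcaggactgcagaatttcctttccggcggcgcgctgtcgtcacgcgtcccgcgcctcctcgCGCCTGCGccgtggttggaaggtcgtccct
NDUFB11: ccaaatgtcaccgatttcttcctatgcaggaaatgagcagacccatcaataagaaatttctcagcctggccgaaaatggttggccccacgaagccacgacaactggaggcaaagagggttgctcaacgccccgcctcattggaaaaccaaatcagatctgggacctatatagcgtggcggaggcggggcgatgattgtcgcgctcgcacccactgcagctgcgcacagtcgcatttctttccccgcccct
NDUFA13: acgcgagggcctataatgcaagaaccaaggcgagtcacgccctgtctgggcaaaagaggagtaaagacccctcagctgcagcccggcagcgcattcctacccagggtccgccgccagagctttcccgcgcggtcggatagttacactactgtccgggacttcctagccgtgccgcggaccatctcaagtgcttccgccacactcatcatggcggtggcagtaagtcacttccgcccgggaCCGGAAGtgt
COX8A lies on the plus strand at chr11:63974370-63974619, NDUFB7 on the minus strand at chr19:14572067-14572316, NDUFA11 on the minus strand at chr19:5903791-5904040, UQCRFS1 on the minus strand at chr19:29213152-29213401, NDUFB11 on the minus strand at chrX:47144703-47144952 and NDUFA13 on the plus strand at chr19:19515975-19516224. A match of letters describes the sequence and was not tested as a site of binding. Chromosome 19 held 12 members, more than any other chromosome, and the share of all genes encoded there was not examined.

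Member transcripts were short. The median messenger RNA of the 82 members tested in nuclear RNA was 781 bases long, against 3310 bases over 13588 protein-coding genes. The median 3′ UTR was 194 bases against 1280, and the median number of exons 4 against 9. The members were also abundant. In wild-type cytoplasm the median level of the 81 members tested was 72.7 TPM, against 6.5 TPM over 13607 protein-coding nuclear-encoded genes, and 37 of the 81 members reached 100 TPM.

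Within complex V, ATP5MK, a small subunit of the membrane part, had the highest cytoplasmic level at 498 ± 85.2 TPM (SD, n = 3, wild type). ATP5F1B, the catalytic beta subunit, stood at 354 ± 20.4 TPM and ATP5F1A, the alpha subunit, at 202 ± 15.7 TPM. In complex IV the highest member was COX4I1, the ubiquitous form of subunit 4, at 471 ± 20.6 TPM. NDUFB9, an accessory subunit of the membrane arm, led complex I at 312 ± 34.7 TPM, and UQCRH, the hinge protein, led complex III at 282 ± 24.4 TPM. The 4 members of complex II lay close together, from 38.6 ± 2.19 TPM for the flavoprotein SDHA to 59.9 ± 3.92 TPM for the iron-sulfur protein SDHB. The lowest complex I member was the accessory subunit NDUFA6 at 15.8 ± 1.21 TPM. The difference between ATP5MK and COX4I1 was within the SD of ATP5MK.

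Tissue isoforms were one-sided. COX7B2 and COX6A2 had 0 reads in every library, COX7A1 and COX4I2 at most 1 read and COX8C at most 5 reads, so these 5 members were not tested. Their ubiquitous partners were COX7B at 27.8 ± 7.23 TPM, COX6A1 at 262 ± 7.60 TPM, COX7A2 at 179 ± 11.2 TPM, COX4I1 (above) and COX8A at 182 ± 7.86 TPM in wild-type cytoplasm. COX7A2L, a relative that takes part in supercomplexes, stood at 45.7 ± 2.0 TPM. Among the genes for the identical mature c subunit of ATP synthase, ATP5MC1 stood at 132 ± 33.8 TPM and ATP5MC3 at 160 ± 28.2 TPM, within their spread of each other, and ATP5MC2 at 1.35 ± 0.198 TPM. UQCRHL, an intronless copy of UQCRH, stood at 3.92 ± 0.400 TPM, and reads of near-identical copies may be split between them. COX6B1 stood at 4.67 ± 0.281 TPM and COX6B2 at 0.562 ± 0.152 TPM. The annotation's canonical COX6B1 transcript was not among the transcripts quantified here, and the canonical ATP5MC2 and COX6C transcripts carried 0.112 of 1.35 TPM and 0.726 of 209 TPM, so levels of these genes may be partial.

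The distribution between the fractions was compared first within each genotype. In wild type 76 of 82 members were lower in nuclear than in cytoplasmic RNA and 2 were higher, while over all genes tested 37.3% were lower and 39.6% higher (edgeR quasi-likelihood test, adjusted p of at most 0.05 here and throughout). The median log2 ratio of members was -1.45, against -0.28 over protein-coding genes. COX8A, a small subunit of complex IV, had a log2 ratio of -2.21 ± 0.08 (SE, adjusted p = 3.29e-18), and UQCRHL -2.26 ± 0.14 (adjusted p = 6.94e-14). These ratios are relative to the centre of all genes in both fractions and do not give the share of molecules in the nucleus. By complex the medians were -1.45 for I, -0.81 for II, -1.85 for III, -1.63 for IV and -1.41 for V, and the highest single value among complexes I to IV was 0.11 for NDUFA10, which was not called.

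Both members on the nuclear side were in complex V. ATP5MC2 had a log2 ratio of 1.83 ± 0.16 (adjusted p = 1.10e-10), and 88.9% of its wild-type nuclear TPM was assigned to retained-intron transcripts. With only protein-coding transcripts summed its ratio was -1.39. ATP5MGL, an intronless copy of ATP5MG, had 3.04 ± 0.51 but rested on 1 to 2 reads in each wild-type cytoplasmic library.

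In the AGO1 knockout 74 of 82 members were lower in nuclear RNA and 2 higher (34.5% and 40.0% of all genes), and in the AGO2 knockout 74 and 2 (33.6% and 39.8%). For AGO1/2 cells 66 were lower and 8 higher (31.6% and 36.9%), and in the AGO1/2/3 knockout 74 and 5 (34.1% and 36.1%). The median log2 ratios were -1.25, -1.31, -0.90 and -1.03 in this order. SDHA, which carries the FAD of complex II, went from -0.17 in wild type to 0.65 in the AGO1/2 knockout, and NDUFS1, the largest iron-sulfur subunit of complex I, from -0.20 to 0.51. On the log2(TPM + 1) scale with limma the AGO1/2 median turned to 0.11 with 18 members lower and 35 higher, where the median of all genes was itself shifted to 0.48. On that scale the medians of the other genotypes stayed below 0, at -0.99 in wild type, -0.84 and -0.81 in the AGO1 and AGO2 lines and -0.39 with all 3 edited, beside all-gene medians of 0.24 to 0.30.

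**Figure D1:**
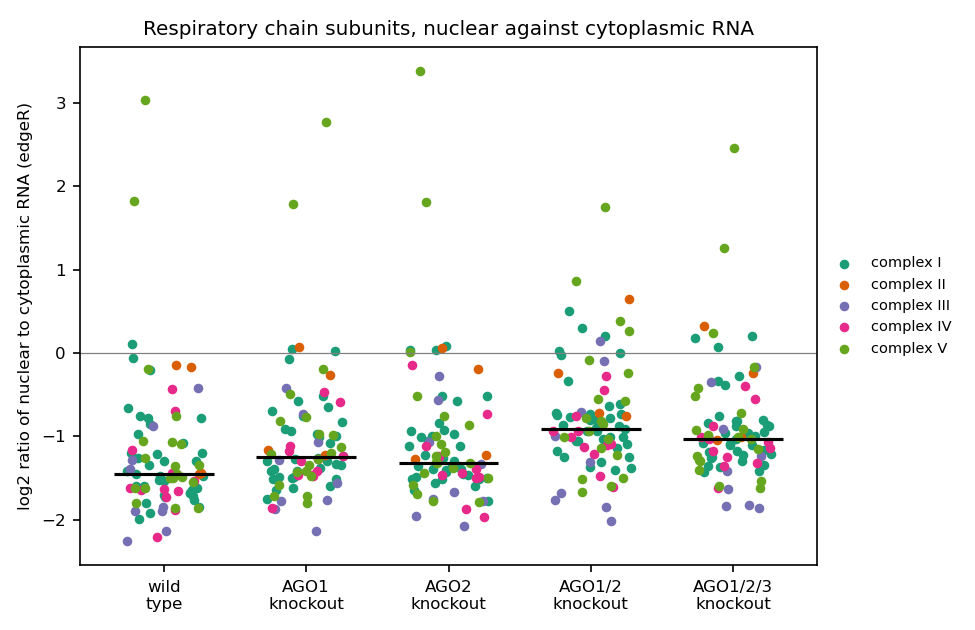
Log2 ratio of nuclear to cytoplasmic RNA (y axis, edgeR) for the 82 tested members in each genotype (x axis), 1 point per member coloured by complex, with the median as a bar. Medians rise from -1.45 in wild type to -0.90 in the AGO1/2 knockout, and the points above 1 are ATP5MGL and ATP5MC2.

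Each knockout line was next compared with wild type within nuclear RNA. All 4 comparisons share the 3 wild-type libraries, so they are not independent of each other. Of 82 members, 56 rose and 3 fell in the AGO1 knockout, beside 14.3% and 15.6% of all genes, and 56 rose and 1 fell in the AGO2 knockout, beside 20.2% and 19.9%. The AGO1/2 knockout had 63 that rose and 7 that fell, beside 32.9% and 34.7%, and in the AGO1/2/3 knockout 51 rose and 7 fell, beside 29.1% and 29.5%. Median log2 fold changes were 0.34, 0.28, 0.48 and 0.29, against 0.00, 0.06, 0.15 and 0.12 over protein-coding genes. On the log2(TPM + 1) scale the median of all genes moved to -0.17, -0.17, -0.07 and -0.16, the member medians were 0.10, 0.06, 0.52 and 0.11, and the splits were 11 higher and 1 lower, 7 and 3, 62 and 3, and 28 and 9. The direction of the member medians did not change there, but most AGO1 and AGO2 calls were lost. With only protein-coding transcripts summed, 47, 42, 48 and 34 members rose and 3, 1, 11 and 12 fell. The member medians were then 0.28, 0.22, 0.30 and 0.15.

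Complex I contributed 26, 28, 31 and 24 higher members of 37 in the 4 lines, listed from the AGO1 to the AGO1/2/3 line. NDUFA2, an accessory subunit of the matrix arm, stood at 11.5, 9.79 and 10.0 CPM (counts scaled to the normalised library size) in the wild-type nuclear libraries and at 22.8, 22.1 and 22.6 CPM in those of the AGO1/2 knockout. Its values in the AGO1/2/3 knockout were 16.4, 20.1 and 19.8 CPM, in the AGO1 knockout 14.5, 14.8 and 15.7 CPM and in the AGO2 knockout 15.0, 15.1 and 15.7 CPM. No library of any edited line overlapped the wild-type range. The log2 fold change was 1.10 ± 0.09 in AGO1/2 (SE, adjusted p = 3.01e-08), 0.84 ± 0.09 in AGO1/2/3, 0.52 ± 0.09 in AGO1 and 0.54 ± 0.09 in the AGO2 line. NDUFB11, an X-linked subunit of the membrane arm, stood at 14.5, 14.1 and 16.1 CPM in wild type, at 29.6, 30.6 and 28.0 CPM in the AGO1/2 knockout and at 20.5, 22.4 and 22.3 CPM in the AGO1 knockout. Again the lowest edited library lay above the highest wild-type library. Its log2 fold changes were 0.55 ± 0.08, 0.46 ± 0.08, 0.99 ± 0.08 and 0.82 ± 0.08 in the same order of lines. NDUFB7, another membrane-arm subunit, stood at 10.2, 9.37 and 11.9 CPM in wild type and at 14.6, 16.7 and 15.5 CPM in the AGO2 knockout, without overlap, and rose by 0.57 ± 0.10 (adjusted p = 3.03e-04).

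NDUFC2, a membrane-arm subunit, moved in opposite directions between lines. Its nuclear level was 33.1, 33.2 and 35.5 CPM in wild type, 25.3, 24.8 and 25.9 CPM in the AGO1 knockout and 23.1, 24.7 and 25.3 CPM in the AGO2 knockout. It was 65.1, 68.1 and 61.6 CPM in the AGO1/2 line and 56.3, 59.1 and 58.1 CPM in the AGO1/2/3 line. The single lines lay below and the multiple lines above the wild-type range. The log2 fold changes were -0.42 ± 0.06, -0.48 ± 0.06, 0.94 ± 0.06 and 0.77 ± 0.06, each called. The 19 other genes within 2 Mb with a mean of over 3 CPM had a median of -0.10, -0.05, 0.08 and 0.10. A readthrough gene shares exons with NDUFC2, so that reads could be split between them.

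Complex II was represented by SDHA, SDHB and SDHD, which rose in all 4 lines, and by the membrane anchor SDHC, which did not on the count scale. SDHA changed by 0.35 ± 0.05, 0.21 ± 0.05, 0.28 ± 0.05 and 0.31 ± 0.05. SDHC stood at 106, 109 and 112 CPM in the AGO1 knockout and at 121, 127 and 140 CPM in wild type, and fell by 0.25 (SE 0.06, adjusted p = 0.00755) on the log2 scale. With counts corrected for the length of the transcripts its value turned to 0.25. In complex III the Rieske iron-sulfur protein UQCRFS1 stood at 43.1, 45.0 and 35.7 CPM in wild type and at 60.0, 61.5 and 61 CPM in the AGO1 knockout, without overlap. Its changes were 0.56 ± 0.08, 0.42 ± 0.08, 0.69 ± 0.08 and 0.45 ± 0.08. UQCRB, which helps to form the ubiquinone site, had values of 0.34 ± 0.08, 0.02 ± 0.08 (not called), -0.38 ± 0.08 and -0.63 ± 0.08.

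COX8A, a small subunit of complex IV, stood at 21.3, 21.1 and 26.2 CPM in wild-type nuclear RNA, at 31.1, 33.2 and 33.2 CPM in AGO1, 30.7, 39.4 and 35.8 CPM in AGO2, 47.2, 49.0 and 45.7 CPM in AGO1/2 and 39.2, 43.8 and 42.5 CPM in AGO1/2/3 knockout cells. All edited libraries lay above the wild-type range. The log2 fold changes were 0.51 ± 0.10, 0.63 ± 0.10, 1.05 ± 0.09 and 0.87 ± 0.10. COX5B, which binds zinc, stood at 33.0, 31.3 and 38.2 CPM in wild type and 45.8, 52.9 and 51.9 CPM in the AGO2 knockout, a change of 0.56 ± 0.09. COX6B1 had a log2 fold change of 1.23 ± 0.45 in the AGO1/2/3 knockout (adjusted p = 0.0291) but held 6 to 8 reads per wild-type and 12 to 34 per AGO1/2/3 nuclear library, and the call was lost without the AGO1/2/3 library at passage 11 or 12 or the wild-type one at 27 or 29. COX6B2, its testis form, fell by 1.23 (SE 0.37, adjusted p = 0.0204) in the AGO1 knockout on 12 to 16 reads per library, against 19 to 36 in wild type, a call lost without the AGO1 library at passage 7 or 8 or the wild-type one at 29. COX7B, also a small subunit, was at 13.1, 12.2 and 9.35 CPM in wild type and 10.5, 8.45 and 8.59 CPM in the AGO1/2 knockout, where the groups overlapped and the change was -0.33 ± 0.13 (adjusted p = 0.0324). This call was lost without the AGO1/2 library at passage 10 or 11 or the wild-type one at 27 or 28.

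In complex V, 12, 11, 15 and 11 of 20 members rose in nuclear RNA. ATP5MF, a subunit of the membrane part, stood at 54.0, 52.2 and 37.8 CPM in wild type and at 71.5, 72.1 and 70.3 CPM in the AGO1 knockout. Its log2 fold changes were 0.57 ± 0.11, 0.36 ± 0.11, 0.82 ± 0.11 and 0.55 ± 0.11, and the wild-type library at passage 29 was its lowest value. The readthrough gene ATP5MF-PTCD1 overlaps ATP5MF, so that reads could be split between them. ATP5F1B stood at 461, 460 and 516 CPM in wild type, below every edited library (597 to 831 CPM), and rose by 0.52 ± 0.07, 0.37 ± 0.07, 0.74 ± 0.07 and 0.65 ± 0.07. ATP5MC2 fell by 0.37 (SE 0.15, adjusted p = 0.0453) in the AGO1/2 knockout, on overlapping values of 4.73, 4.30 and 4.94 CPM against 6.02, 7.19 and 4.76 CPM, and its value turned to 0.91 when only protein-coding transcripts were summed. The call held only without the wild-type library at passage 29, and was lost without any of the other 5. Of 15 members on a fixed list called the catalytic core, 13, 14, 14 and 13 rose in the 4 lines and 0 fell. Rises stood at 68.3, 68.3, 76.8 and 62.2% among all tested members and at 18.5, 26.9, 43.8 and 38.5% among protein-coding genes. The name of the list is loose: it includes COX4I1 and COX5A, which are not catalytic, and leaves out UQCRC2, a core protein of complex III.

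**Figure D2:**
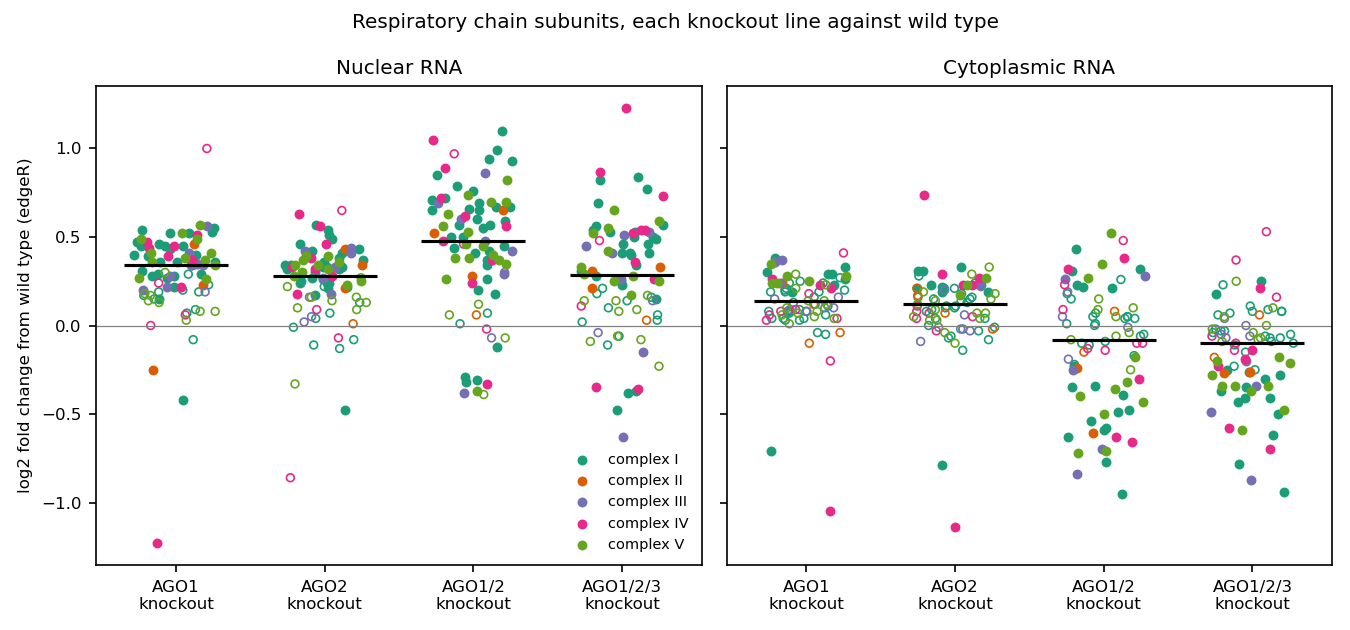
Log2 fold change against wild type (y axis) of each tested member in nuclear (left) and cytoplasmic RNA (right) for the 4 edited lines (x axis). Filled points have an adjusted p of at most 0.05, bars are medians: 0.34, 0.28, 0.48 and 0.29 in nuclear RNA, and 0.14, 0.12, -0.08 and -0.10 in cytoplasmic RNA.

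In cytoplasmic RNA the members moved less, and the lines separated. Of 81 members, 21 rose and 2 fell in the AGO1 knockout, beside 4.28% and 8.13% of all genes, and 18 rose and 2 fell in the AGO2 knockout, beside 7.07% and 9.0%. Among AGO1/2 cells 13 rose and 28 fell, beside 23.9% and 25.4%, and in the AGO1/2/3 knockout 3 rose and 34 fell, beside 18.6% and 20%. These comparisons also share their wild-type libraries. The rises in the single lines depended on the fit: 5 and 3 members rose when only the compared groups entered it, 6 without the AGO1 knockout library at passage 7, and 3 without the AGO2 knockout library at passage 8. On the log2(TPM + 1) scale 0 members rose in any line and 3, 17, 65 and 62 fell, while the median of all genes moved to -0.08, -0.13, -0.20 and -0.13 and that of members to -0.00, -0.12, -0.50 and -0.36.

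Within the AGO1/2 knockout 6 members of complex I rose and 12 fell, 0 and 2 of complex II, 2 and 3 of complex III, 2 and 3 of complex IV, and 3 and 8 of complex V. In the AGO1/2/3 knockout the counts were 2 and 13, 0 and 2, 0 and 4, 1 and 5, and 0 and 10. Complexes I to V held 37, 4, 9, 12 and 19 members tested in the cytoplasm. Of protein-coding genes 27.0% rose and 29.3% fell there in AGO1/2, and 21.6% rose and 23.4% fell in AGO1/2/3. Of the 15 core members 8 rose and 0 fell in AGO1, 0 changed in AGO2, 2 rose and 8 fell in AGO1/2 and 0 rose and 8 fell in AGO1/2/3 knockout cells. By edgeR 4 of them were higher and 0 lower in AGO2 at an unadjusted p under 0.05, DESeq2 called 0, and limma on log2(TPM + 1) called 3 lower. NDUFV1, which binds NADH and FMN, was at 69.5, 68.8 and 85.7 CPM in wild type, at 46.2, 40.1 and 44.8 CPM in the AGO1/2 knockout and at 53.9, 55.0 and 49.2 CPM in the AGO1/2/3 knockout, without overlap. It fell by 0.77 (SE 0.09, adjusted p = 1.04e-05) and by 0.50 (SE 0.09). ATP5F1A was at 490, 477 and 464 CPM in wild type, at 310, 265 and 300 CPM in the AGO1/2 knockout and at 392, 386 and 330 CPM in the AGO1/2/3 knockout. The edited libraries again lay below the wild-type range, and the changes were -0.71 ± 0.07 and -0.37 ± 0.07. UQCRC2, a core protein of complex III, was at 141, 132 and 149 CPM in wild type, at 91.0, 81.6 and 86.3 CPM in the AGO1/2 knockout and at 173, 184 and 185 CPM in the AGO1 knockout. It thus lay below wild type in one line and above it in the other, by -0.70 ± 0.07 and 0.36 ± 0.07.

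NDUFA13, also known as GRIM-19, was at 71.6, 74.2 and 78.0 CPM in wild-type cytoplasm and at 75.1 to 80.1 CPM in the single lines. It was at 39.0, 38.3 and 38.6 CPM in the AGO1/2 knockout and at 39.3, 39.1 and 38.5 CPM in the AGO1/2/3 knockout. The multiple lines therefore stood apart from all other libraries, with changes of -0.95 ± 0.05 (adjusted p = 3.84e-09) and -0.94 ± 0.05 (adjusted p = 5.32e-09), against -0.32 ± 0.07 and -0.38 ± 0.07 in nuclear RNA. The 57 other genes within 2 Mb with a mean of over 3 CPM had medians of -0.09 and -0.06 in cytoplasmic RNA. In nuclear RNA 62 such genes had 0.32 and 0.27.

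NDUFC2 was at 76.6, 75.8 and 66.6 CPM in wild-type cytoplasm, 47.6, 44.6 and 41.2 CPM in the AGO1 knockout and 41.5, 44.8 and 40.1 CPM in the AGO2 knockout. It fell there by 0.71 (SE 0.08, adjusted p = 4.56e-05) and 0.79 (SE 0.08, adjusted p = 1.24e-05), and its values in the multiple lines, 0.04 ± 0.08 and -0.09 ± 0.08, were not called. COX6B2 fell by 1.05 (SE 0.20) and by 1.14 (SE 0.21) in the AGO1 and AGO2 knockouts on 31 to 44 reads per library. COX6B1 had 0.74 ± 0.23 in the AGO2 knockout (adjusted p = 0.0421) on 82 to 97 reads per library, against 32 to 34 in wild type, and the call was lost when any 1 of the 6 libraries was left out.

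Some members were higher in the cytoplasm of the multiple lines. NDUFA11, a membrane-arm subunit, was at 53.2, 54.3 and 56.6 CPM in wild type, at 75.2, 76.0 and 69.9 CPM in AGO1/2 and at 65.3, 64.2 and 65.7 CPM in AGO1/2/3 knockout cells, without overlap. It rose by 0.43 ± 0.06 and 0.25 ± 0.06. COX8A was at 77.7, 74.1 and 81.8 CPM in wild type and at 107, 105 and 92.7 CPM in the AGO1/2 knockout, and its changes were 0.38 ± 0.07 there and 0.21 ± 0.07 in AGO1/2/3. NDUFB7 changed by 0.32 ± 0.06 and 0.18 ± 0.06. On the log2(TPM + 1) scale COX8A turned to -0.04 in both lines, NDUFB7 to -0.06 and NDUFA11 to -0.00 in AGO1/2/3 knockout cells. ATP5MC2 rose by 0.52 ± 0.15 in the AGO1/2 knockout, on 120 to 139 reads per library against 49 to 58 in wild type. In the single lines NDUFB2, a membrane-arm subunit, rose by 0.38 ± 0.09 in AGO1 and 0.31 ± 0.09 in AGO2 knockout cells, and NDUFA3 by 0.33 ± 0.08 in the AGO2 knockout. The NDUFB2 calls were lost without the wild-type library at passage 29, the AGO1 ones at 6 or 7 and the AGO2 ones at 8 or 10, the NDUFA3 call without the AGO2 library at passage 8, and the COX8A and NDUFB7 calls in AGO1/2/3 without its library at passage 12 or the wild-type one at 28.

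**Figure D3:**
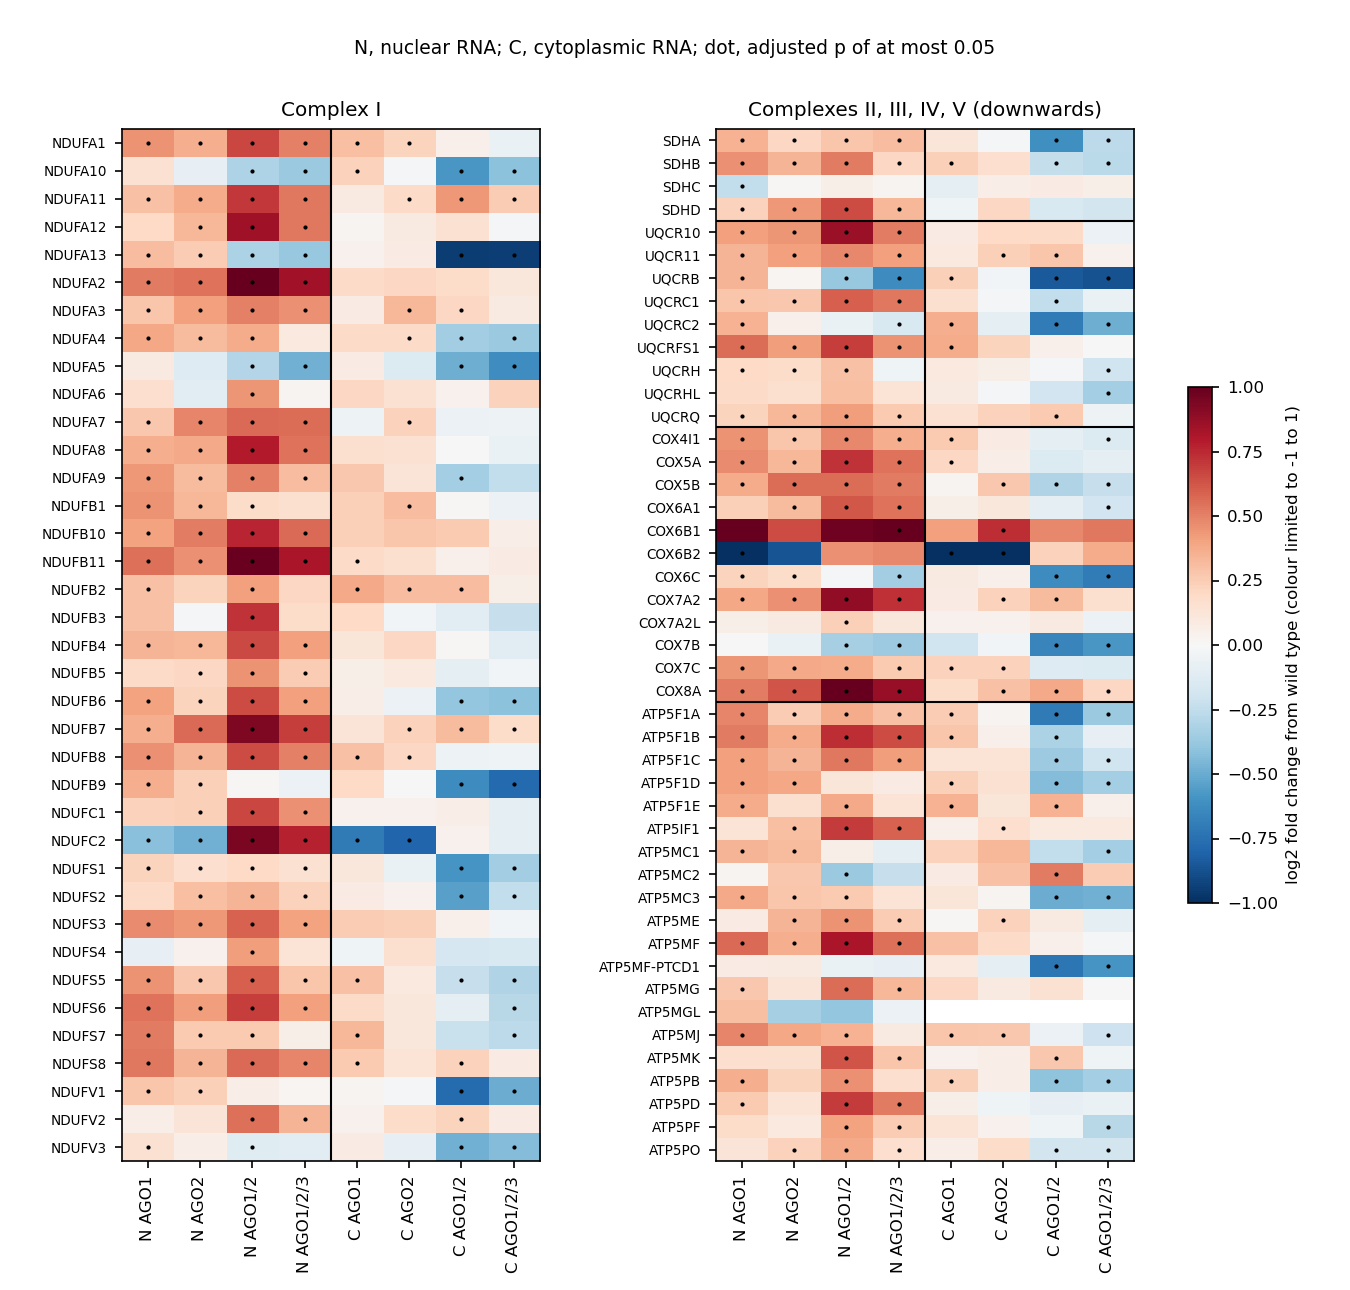
Log2 fold change against wild type (colour, limited to -1 to 1) for each tested member (rows, by complex) in nuclear (N) and cytoplasmic (C) RNA of the 4 edited lines (columns), with a dot at an adjusted p of at most 0.05. NDUFA13 and UQCRB stand out as blue in the cytoplasm of the AGO1/2 and AGO1/2/3 knockouts, and NDUFC2 changes colour between single and multiple lines.

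Whether a line's change differed between the fractions was tested as an interaction, nuclear minus cytoplasmic effect. In the AGO1/2 knockout 61 of 82 members had a higher nuclear than cytoplasmic effect and 1, ATP5MC2, a lower one, beside 19.6% and 17.0% of all genes. In the AGO1/2/3 knockout the counts were 50 and 0, beside 11.7% and 11.1%. In the AGO1 knockout they were 1 and 0, beside 0.184% and 0.478%, and in the AGO2 knockout 4 and 0, beside 2.63% and 3.13%. The member medians were 0.53, 0.41, 0.20 and 0.18 in this order, against 0.13, 0.08, 0.08 and 0.11 over protein-coding genes. The counts of the single lines ranged from 0 to 4 and from 0 to 10 when 1 library was left out: for AGO1 it became 4 without the wild-type nuclear library at passage 29 and 2 without the cytoplasmic one, and 0 without any of the 3 AGO1 cytoplasmic libraries, the nuclear ones at passages 7 and 8, the wild-type nuclear ones at 27 and 28 or the wild-type cytoplasmic one at 28.

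ATP5F1A and ATP5F1B, which together form the catalytic ring of ATP synthase, had the largest interactions of the AGO1/2 knockout, 1.01 ± 0.10 (adjusted p = 3.80e-08) and 0.99 ± 0.09 (adjusted p = 1.67e-08). The nuclear level of ATP5F1A was 500, 501 and 493 CPM in the AGO1/2 knockout against 386, 386 and 380 CPM in wild type, above the wild-type range where its cytoplasmic level was below it. NDUFB6, a membrane-arm subunit, had 0.74 ± 0.10 in the AGO1/2/3 knockout, with changes of 0.41 ± 0.08 in nuclear and -0.41 ± 0.06 in cytoplasmic RNA. NDUFC2 had 0.78 ± 0.09 there. NDUFB11 was called in each of the 4 lines, with 0.37 ± 0.09, 0.30 ± 0.09, 0.86 ± 0.09 and 0.66 ± 0.09, from the AGO1 to the AGO1/2/3 line. In the AGO2 knockout NDUFB7 had 0.35 ± 0.10 and ATP5F1B 0.32 ± 0.09. With passage as a block, NDUFB11 in AGO1 (0.31) and NDUFB7 (0.29) and ATP5F1B (0.26) in AGO2 were not called, and the AGO2 count went from 4 to 0. Leaving out 1 of the 12 libraries at a time, these 3 calls were lost in 9, 8 and 7 fits. Of the 15 core members 14 had a higher nuclear effect in the AGO1/2 and 11 in the AGO1/2/3 knockout, and 0 a lower one. With protein-coding genes alone in the fit, an alternative chosen after the data were seen, the member medians were 0.37 and 0.34 in the multiple lines. With only protein-coding transcripts summed, 43 and 34 members had a higher nuclear effect in these lines and 3 and 2 a lower one. The member medians were then 0.35 and 0.31.

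**Figure D4:**
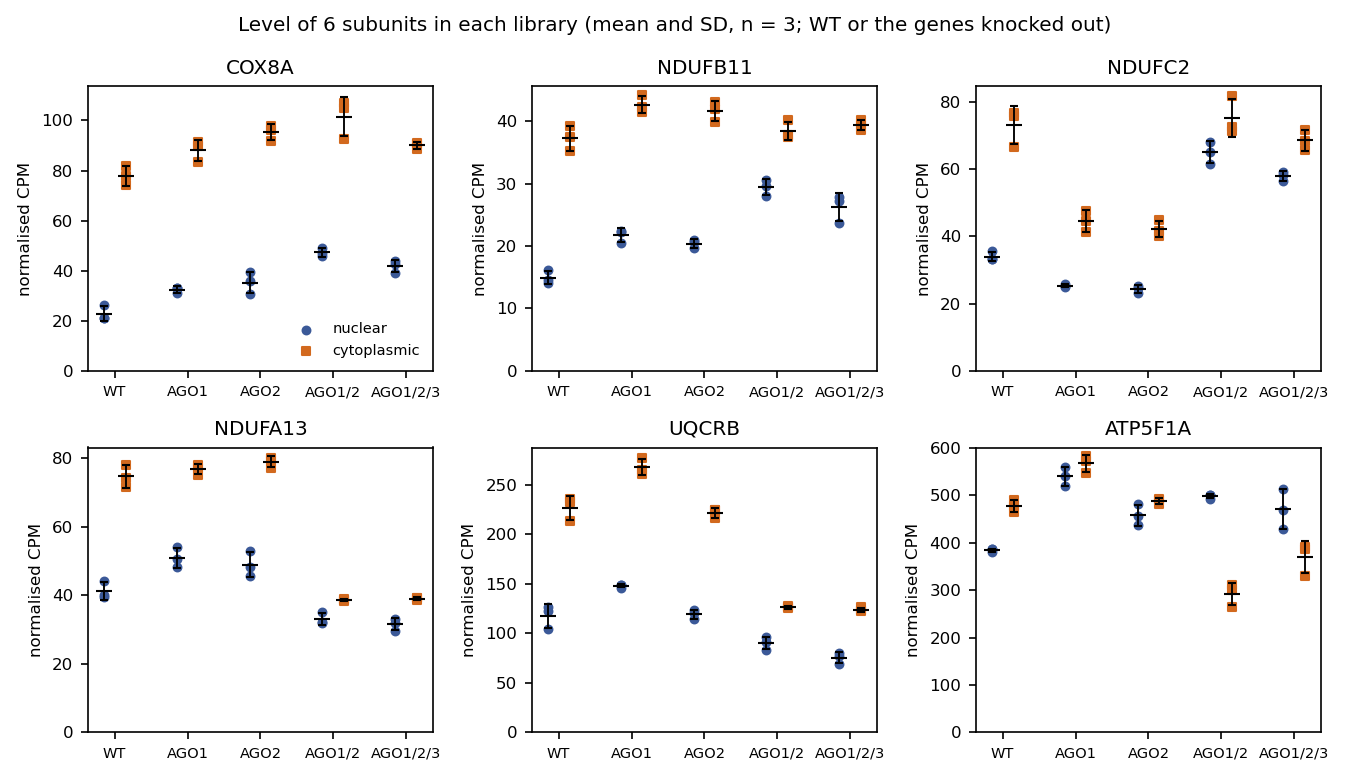
Normalised CPM (y axis) of 6 members in every nuclear (circles) and cytoplasmic (squares) library by genotype (x axis), with mean and SD of 3. The 2 fractions were normalised separately, so levels compare within a fraction; ATP5F1A in the AGO1/2 knockout lies above wild type in nuclear and below it in cytoplasmic RNA.

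Position on the chromosome was examined for members that stood lower in both multiple lines. UQCRB, NDUFB9 and COX6C lie on the long arm of chromosome 8. UQCRB was at 235, 232 and 213 CPM in wild-type cytoplasm, at 128, 126 and 125 CPM in the AGO1/2 knockout and between 122 and 126 CPM in the AGO1/2/3 knockout libraries, far below the wild-type range. It fell by 0.84 (SE 0.05, adjusted p = 1.62e-08) and 0.87 (SE 0.05, adjusted p = 1.57e-08). NDUFB9 changed by -0.63 ± 0.07 and -0.78 ± 0.07, and COX6C, a small subunit of complex IV, by -0.63 ± 0.05 and -0.70 ± 0.05. The other 194 genes beyond 75 Mb of chromosome 8 with a mean of over 3 CPM had cytoplasmic medians of -0.62 and -0.66 in these lines and 0.02 and -0.04 in the single lines, against 0.01 and -0.01 in the multiple lines for genes on other chromosomes. Of these 194 genes 165 and 168 fell. In nuclear RNA 215 such genes had medians of -0.60 and -0.65 in the multiple lines, where NDUFB9 had 0.01 and -0.06, neither called, and COX6C had -0.02, not called, and -0.35. In the cytoplasm NDUFA5, an accessory subunit encoded on chromosome 7, fell by 0.49 (SE 0.08) and 0.62 (SE 0.08). The 4 other genes within 2 Mb of it with a mean of over 3 CPM all fell, with medians of -0.77 and -0.67. Without the members on chromosome 8, 13 rose and 25 fell of 78 in the AGO1/2 and 3 rose and 31 fell in the AGO1/2/3 cytoplasm. Of protein-coding genes 27.0% rose and 29.3% fell in the AGO1/2 cytoplasm, so the falls there were near that share. In the AGO1/2/3 cytoplasm 21.6% rose and 23.4% fell.

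The summed level of the members was read as a share of the TPM of nuclear-encoded protein-coding genes. In nuclear RNA it was 1.54 to 1.57% in wild type, 1.72 to 1.76% in AGO1, 1.66 to 1.76% in AGO2, 1.74 to 1.76% in AGO1/2 and 1.56 to 1.69% in AGO1/2/3 knockout libraries. The first 3 edited lines lay above the wild-type range and the AGO1/2/3 knockout overlapped it. In cytoplasmic RNA the share was 2.39 to 2.59% in wild type, 2.53 to 2.69% in AGO1, 2.56 to 2.69% in AGO2, 2.19 to 2.28% in AGO1/2 and 2.15 to 2.22% in AGO1/2/3 knockout libraries. The single lines overlapped wild type and the multiple lines lay below it. Of all TPM, leaving out mitochondrial genes, the cytoplasmic share was 1.05 ± 0.117% in wild type, 0.751 ± 0.0165% in AGO1/2 and 0.769 ± 0.0382% in AGO1/2/3 knockout cells.

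**Figure D5:**
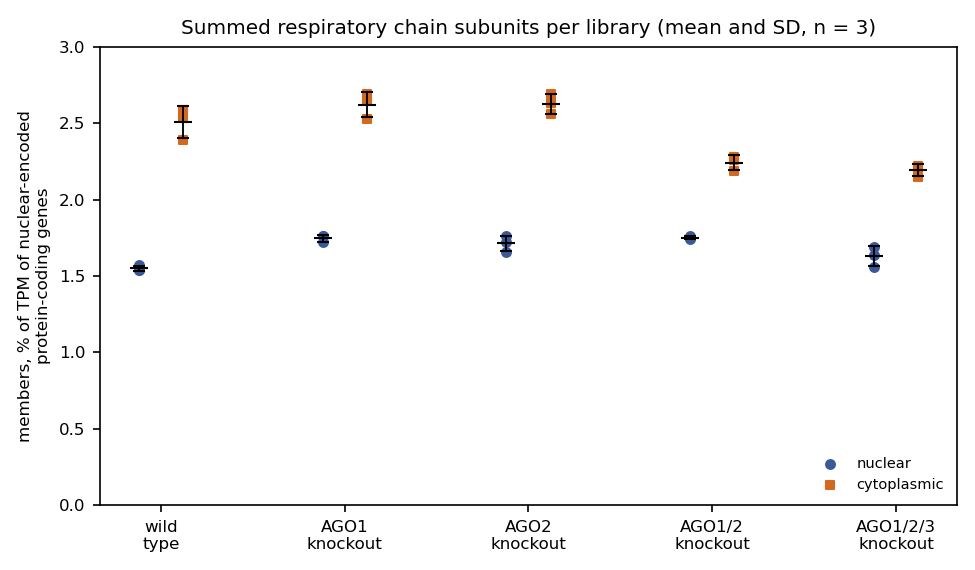
Summed TPM of the members as a percentage of the TPM of nuclear-encoded protein-coding genes (y axis) in each nuclear (circles) and cytoplasmic (squares) library by genotype (x axis), with mean and SD of 3. Nuclear shares run from 1.54 to 1.76% and cytoplasmic shares from 2.15 to 2.69%, with the AGO1/2 and AGO1/2/3 knockouts lowest in the cytoplasm.

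Retained-intron transcripts, as the annotation labels them, took 9.24 ± 0.59% of the members' nuclear TPM in wild type (SD, n = 3). They took 8.25 ± 0.21% in AGO1, 7.49 ± 0.44% in AGO2, 4.92 ± 0.29% in AGO1/2 and 5.79 ± 0.47% in AGO1/2/3 knockout cells. Every edited library lay below the wild-type range of 8.58 to 9.71%. Over other protein-coding genes the share went in the same order from 15.71 ± 0.28% to 13.39, 12.29, 8.44 and 9.78%. In the cytoplasm members stood at 2.10 to 2.64% in all genotypes. For NDUFA5 the nuclear share was 37.0% in wild type and 15.3% in the AGO1/2 knockout, for SDHA 29.4% and 13.8%, and for NDUFS8, an iron-sulfur subunit of complex I, 25.5% and 10.1%. NDUFA9 showed no such difference, with 71.6% and 73.4%.

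The other genes of the pathway were read from fixed lists, beside 23.9% and 18.6% of all genes that rose and 25.4% and 20% that fell in the AGO1/2 and AGO1/2/3 cytoplasm. Of 13 subunits encoded by mitochondrial DNA 11 rose and 1 fell in the AGO1/2 cytoplasm, with a median of 0.78, and 1 rose and 2 fell in the AGO1/2/3 cytoplasm, with a median of -0.03. MT-CO1, the catalytic subunit of complex IV, changed by 0.92 in AGO1/2 and stood at 0.29, not called, in AGO1/2/3 knockout cells. Of 16 complex I assembly factors 2 rose and 9 fell, and 1 rose and 9 fell, in the cytoplasm of the AGO1/2 and AGO1/2/3 knockouts. ECSIT fell by 0.81 and 0.91, and NDUFAF3 rose by 0.72 and 0.65. Of 13 tested regulators of respiratory gene transcription 0 rose and 10 fell in each of these cytoplasms, among them TFAM, which packages mitochondrial DNA, by 0.31 and 0.40, and NRF1 by 0.29 and 0.26. CYC1, the cytochrome of complex III and also encoded on chromosome 8, fell by 0.89 and 0.83, and CYCS, cytochrome c, had -0.05 and -0.28, neither called.

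Ribosomal protein genes were set beside the members, and their length and level were not examined. Of 78 mitochondrial ribosomal protein genes 47, 44, 58 and 38 rose and 4, 3, 7 and 11 fell in nuclear RNA of the 4 lines. In the cytoplasm 3, 7, 6 and 0 rose and 1, 1, 27 and 31 fell. Of 79 cytosolic ribosomal protein genes 73, 46, 65 and 52 rose and 1, 2, 7 and 8 fell in nuclear RNA, and of 78 in the cytoplasm 48, 7, 28 and 12 rose and 1, 1, 8 and 9 fell. Over all genes 14.3, 20.2, 32.9 and 29.1% rose and 15.6, 19.9, 34.7 and 29.5% fell in nuclear RNA. In the cytoplasm 4.28, 7.07, 23.9 and 18.6% rose and 8.13, 9.0, 25.4 and 20% fell. Of protein-coding genes 29.3 and 23.4% fell in the AGO1/2 and AGO1/2/3 cytoplasm. The interaction medians in the AGO1/2 knockout were 0.53 for members, 0.48 for the mitochondrial and 0.23 for the cytosolic ribosome. No test between these families was made.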

How the data were processed

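Nuclear and cytoplasmic RNA of HCT116 cells was sequenced by the authors as stranded, ribosome-depleted, paired-end libraries. STAR 2.5.3a, Salmon 0.11.0, DESeq2 and the build hg38 are named in the submitters' processing notes. The deposited Salmon tables give, per transcript, estimated counts and TPM (the length-corrected level), which each sum to 1000000. Transcripts were matched to genes by GENCODE 44 identifiers without version: 196040 matched and 4361, holding 2.23 to 4.01% of reads, did not. Estimated counts were summed per gene and rounded.

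Each knockout was compared with wild type in 1 edgeR 4.0.16 quasi-likelihood fit of the 15 libraries of a fraction (scaled with TMM and filtered by filterByExpr at a minimum count of 10). Nuclear against cytoplasmic RNA and the interaction used all 30 libraries. Benjamini-Hochberg adjustment covered all genes tested, with calls at 0.05. Levels are TPM or normalised CPM. Alternatives were DESeq2 1.42.0, RLE factors, no filter, length-scaled counts, limma 3.58.1 on log2(TPM + 1) and log2(TPM + 0.1), protein-coding transcripts only, compared groups only, passage blocks and leaving out libraries.

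The members and gene lists were chosen with earlier results of these data known. Members named with values are the 3 with the largest called rise and fall per comparison, the highest and lowest of each complex, those called alike in all 4 lines of a fraction (a few are given), the tissue isoforms, the catalytic core (as counts and examples), the 2 largest interactions per line and the extremes between fractions. COX6C, NDUFA10, genes of the other lists and the retained-intron examples were named after their values were seen. Precision is limited by 3 libraries per group, and wild-type libraries are the shallowest. Deviations from the group mean in the 2 fractions of the same passage number correlated at 0.156, 0.148 and 0.402 in wild type. The correlations were 0.026 to 0.101 in AGO1 and 0.009 to 0.096 in AGO2. They were -0.027 to 0.212 in AGO1/2 and -0.024 to 0.038 in AGO1/2/3 knockout cells. The main fits did not pair the fractions.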

Additional observations from a re-analysis of the deposited data

Results flagged for a closer look

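The change of a line from wild type differed between nuclear and cytoplasmic RNA by the interaction test (edgeR, Benjamini-Hochberg over all genes) for the following members, each with the difference on the log2 scale. NDUFB11 differed by 0.37 in the AGO1 knockout (adjusted p = 0.0450), with the nuclear effect higher. In the AGO2 knockout NDUFB7 differed by 0.35 (adjusted p = 0.0376) and ATP5F1B by 0.32 (adjusted p = 0.0336). In the AGO1/2 knockout ATP5F1A differed by 1.01 (adjusted p = 3.80e-08) and ATP5F1B by 0.99 (adjusted p = 1.67e-08). In the AGO1/2/3 knockout NDUFC2 differed by 0.78 (adjusted p = 2.46e-06) and NDUFB6 by 0.74 (adjusted p = 9.58e-06). The values in the AGO1 and AGO2 knockouts missed the threshold in some of the alternative settings given next.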

How the results depend on the processing

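Member counts kept within 1.5 times of the values above under 225 alternatives and moved further under 75, and of 823 alternative values for 55 named log2 fold changes 682 kept direction and side of the threshold, 130 lost the call and 11 turned. On the TPM scale, log2(TPM + 1) with log2(TPM + 0.1) in brackets where it differed, higher members in nuclear RNA were 11 (10), 7 and 28 for AGO1, AGO2 and AGO1/2/3, and in the cytoplasm 0 in all 4 lines, with 3, 1, 0 and 0 at an unadjusted limma p under 0.05, where DESeq2 called 27, 20, 15 and 3. Lower members there were 1 and 3 in the nucleus of AGO1 and AGO2, 3 in that of AGO1/2, and 17 (15), 65 and 62 in the cytoplasm of AGO2, AGO1/2 and AGO1/2/3. Nuclear against cytoplasmic counts became 6, 7, 9, 35 and 14 higher from wild type to AGO1/2/3 and 18 (17) lower in AGO1/2, and interactions, counted here as members with a higher nuclear effect, 0 in AGO1 and, with log2(TPM + 0.1), 2 in AGO2. With only the compared groups fitted, cytoplasmic rises were 5, 3 and 8 in AGO1, AGO2 and AGO1/2, falls 1 in AGO1, nuclear falls 1 in AGO1 and 4 in AGO1/2, and interactions 0 in both single lines. Length-scaled counts gave 1 and 3 nuclear falls in AGO1 and AGO1/2, 3 members higher in nuclear RNA in AGO1/2/3 and 9 interactions in AGO2. Protein-coding transcripts alone gave 11 and 12 nuclear falls in AGO1/2 and AGO1/2/3, 4, 4 and 5 members higher in nuclear RNA in wild type, AGO1 and AGO2, and 0 higher interactions in the single lines. Lower interactions there were 1, 3 and 2 in AGO1, AGO1/2 and AGO1/2/3, for 0, 1 and 0. Protein-coding genes alone, chosen after the data were seen, gave 5, 5 and 6 there, 2 and 11 nuclear falls in AGO2 and AGO1/2/3, and 0 interactions in the single lines. Without a low-count filter AGO2 had 10 cytoplasmic rises, AGO1/2 4 nuclear falls, and the single lines 0 interactions. RLE factors gave 0 interactions in the single lines and DESeq2 1 in AGO2. The causes were not tested.

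Values that turned were SDHC (0.25, length-scaled), ATP5MC2 (0.91 in the AGO1/2 nucleus and -1.39 between wild-type fractions, protein-coding transcripts) and, on both TPM scales in the cytoplasm, COX8A (-0.04 in AGO1/2 and AGO1/2/3), NDUFB7 (-0.07 and -0.06) and NDUFA11 (-0.00). Leaving out 1 library gave 6 to 21, 3 to 15 and 1 to 4 cytoplasmic rises in AGO1, AGO2 and AGO1/2/3, 1 to 2 and 3 to 6 nuclear falls in AGO2 and AGO1/2, and 0 to 4 and 0 to 10 interactions in AGO1 and AGO2. Cytoplasmic rises in AGO1 were 13 and 10 without wild-type passages 28 and 29 and 7 and 6 without AGO1 passages 6 and 7. In AGO2 they were 9 and 10 without wild-type passages 28 and 29 and 3, 5 and 7 without AGO2 passages 8, 9 and 10, and in AGO1/2/3 1 without wild-type passage 28 or AGO1/2/3 passage 12. Nuclear falls were 2 in AGO2 without wild-type passage 27 or 29, and in AGO1/2 3 without wild-type passage 28 and 4 without wild-type passage 27 or AGO1/2 passage 10. Interactions in AGO2 were 10 and 7 without the nuclear and cytoplasmic wild-type libraries at passage 29, 2 without the nuclear one at 27, 0 without the AGO2 nuclear library at passage 9, and 1 without its nuclear library at 10, its cytoplasmic ones at 9 or 10, the wild-type nuclear one at 28 or the wild-type cytoplasmic ones at 27 or 28.

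With passage as a replicate block, 2 members were higher and 75 lower in wild-type nuclear RNA, and interactions were 0 in AGO2, 66 in AGO1/2 and 64 in AGO1/2/3. The block took the call from NDUFB11 (0.31) in AGO1 and from NDUFB7 (0.29) and ATP5F1B (0.26) in AGO2, and all-gene interaction counts rose from 133 to 634 and from 1158 to 2356 in these lines. Not every library of the edited lines correlated best with its own number. The edited lines and wild type share no passage number.

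Over all genes, protein-coding transcripts alone gave 8487 nuclear calls in AGO1/2 for 12780, 8662 to 9480 calls between fractions for 13787 to 15447, and 4638 and 536 interactions for 7344 and 1158 in AGO1/2 and AGO2. Protein-coding genes alone gave 9359 to 10092 calls between fractions and 356 interactions in AGO1. Fits of the compared groups gave 3747 nuclear calls for 5651 and 832 cytoplasmic calls for 2185 in AGO1, 1348 cytoplasmic calls for 2828 in AGO2, and 31 and 340 interactions. Limma gave 5090 and 4983 cytoplasmic calls in AGO2, and 1488 and 561 interactions in AGO1, 2582 in AGO2 and 11017 in AGO1/2. AGO1 had 507 interactions with DESeq2 and 271 with RLE factors, and AGO2 606 without a filter. Leaving out 1 library gave as few as 1219 and 1689 cytoplasmic calls and 51 and 617 interactions in AGO1 and AGO2.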
